A study of Mus musculus with 6 samples.

Results

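Adrenergic cyclic AMP (cAMP) signalling of the mouse heart was followed through 8 genes: the receptor gene Adrb1, the G protein genes Gnas and Gnai2, the adenylyl cyclase genes Adcy5 and Adcy6, the protein kinase A (PKA) genes Prkaca and Prkar1a, and the phosphodiesterase gene Pde4d. Members were taken by gene symbol from the array's annotation, using every probe set that carried the symbol alone. This gave 19 of 34945 such probe sets, for 7 of the 8 genes. No probe set was matched to Adrb1, so its transcript level was not analysed here, and it appears only in the search of promoter sequences. A probe set is a group of short probes that together report a single transcript signal, and the one with the highest mean signal over the 6 arrays represented each gene.

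Heart RNA was measured on 6 Affymetrix arrays, 2 in each of 3 groups, all from male mice aged 2 months on a B6 strain background. RKIP-transgenic mice carried RKIP, a protein that inhibits both RAF kinase and the receptor kinases called GRKs, behind the alpha-MHC promoter, which is active in heart muscle cells. GRK-Inh-transgenic mice made a peptide inhibitor of GRKs in the myocardium, and B6 control mice were wild type. The labels describe 1 line for each transgene, and do not name the promoter of the GRK-Inh transgene. Separate animals are not stated for the 2 arrays of a group, so the spread behind the p-values may be technical.

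In the heart, noradrenaline and adrenaline bind beta-adrenergic receptors, which act through the stimulatory G protein subunit encoded by Gnas to switch on adenylyl cyclases. The cyclases encoded by Adcy5 and Adcy6 are the main ones of heart muscle, and the inhibitory subunit encoded by Gnai2 restrains them. The cAMP they make releases the catalytic subunit of PKA from its regulatory subunits, PKA phosphorylates calcium-handling and contractile proteins, and phosphodiesterases end the signal. GRKs phosphorylate the activated receptors and so uncouple them from the G protein.

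The authors deposited a linear signal per probe set, scaled to a 2% trimmed mean of 300.002 on every array, and median signals lay between 50.4 and 55.2. Differences are on the scale of log2(signal + 50), which understates the change of dim genes. A gene was called at an adjusted p under 0.05 (limma, Benjamini-Hochberg adjustment over 11254 genes tested, two-sided). Pebp1, the mouse gene of RKIP, gave signals of 8766 to 9296 on the 6 arrays with its brighter probe set and was not called in either line. The labels do not give the species or the extent of the transgene, so this probe set need not detect it, and the group is called RKIP-labelled below. The heart muscle markers Myh6, Tnnt2, Actc1, Myl2 and Ttn had group mean signals of 27220 to 38501, and 3 skeletal muscle markers lay below the filter level of 50.2. For actin, a control of RNA quality, the 3' signal was 2.92 to 3.03 times the 5' signal on the transgenic arrays and 3.11 and 3.25 times on the control arrays, and its part in the results was not tested.

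Most of the members differed little between groups: Adcy6 alone passed the test, and it was higher in the GRK-Inh hearts. In the RKIP-labelled hearts 0 of 7 members were called against control, where 10.8% of all genes tested were (5.32% higher, 5.52% lower), and 3 members had an unadjusted p under 0.05 (25.2% of all genes). In the GRK-Inh hearts 1 of 7 members was called, higher, against 13.1% of all genes (5.85% higher, 7.25% lower), and 4 had an unadjusted p under 0.05 (28.4% of all genes). Between the lines 1 of 7 was called, lower in RKIP-labelled hearts, against 8.84% of all genes (4.47% higher, 4.37% lower), and 1 had an unadjusted p under 0.05 (23.1% of all genes).

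The arrays of the groups compared did not overlap for 4 of 7 members in the RKIP-labelled comparison with control, against 53.4% of all genes: 1 member was higher (24.2% of all genes) and 3 were lower (29.2%). They did not overlap for 4 of 7 in the GRK-Inh comparison, against 56.9% of all genes, again with 1 higher (23.7%) and 3 lower (33.2%). Between the lines 5 of 7 did not overlap, against 52.9% of all genes, with 2 higher (29.7%) and 3 lower (23.2%) in RKIP-labelled hearts. With 7 members, these counts lay near the shares of all genes. Their median log2 fold change was -0.052 and -0.045 in the comparisons with control, beside -0.017 and -0.031 over all genes tested. Both comparisons use the same control arrays, so they are not independent of each other.

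**Figure D1:**
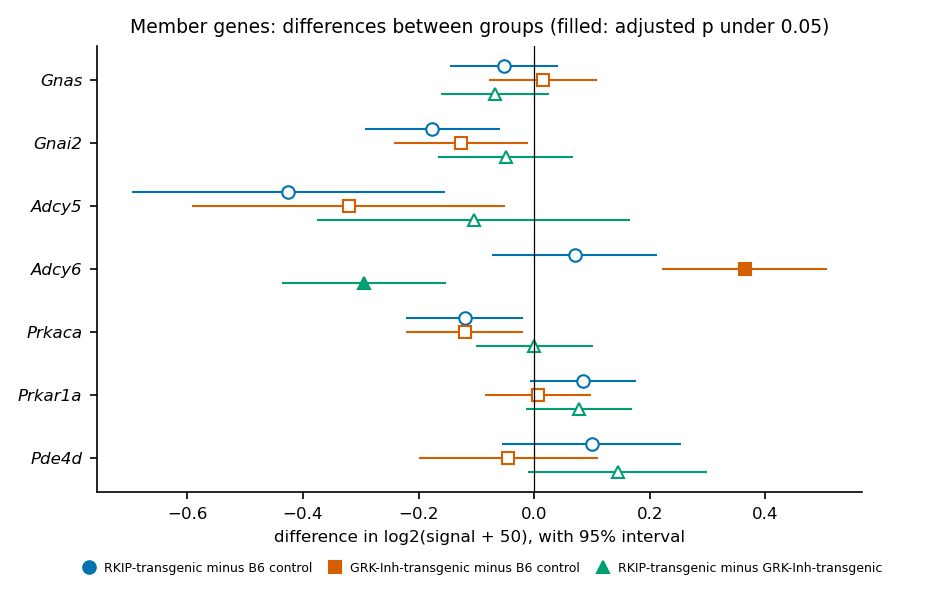
Differences between groups for the 7 members with a probe set, on the log2(signal + 50) scale (horizontal axis), with 95% intervals from the limma fit over 6 arrays; filled symbols mark an adjusted p under 0.05. Only Adcy6 has filled symbols, at 0.36 for GRK-Inh-transgenic minus control and -0.29 for RKIP-transgenic minus GRK-Inh-transgenic.

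Gnas encodes the stimulatory subunit that links beta-adrenergic receptors to the cyclases. Its signals were 12035 and 12782 in control, 12235 and 11688 in RKIP-labelled and 12745 and 12332 in GRK-Inh hearts. Both lines overlapped the control arrays. The log2 fold change was -0.052 ± 0.042 (± SE, adjusted p = 0.491, limma) in RKIP-labelled and 0.015 ± 0.042 (adjusted p = 0.857, limma) in GRK-Inh hearts. The 95% intervals of the fold change were 0.904 to 1.03 and 0.947 to 1.08. The Gnas locus is imprinted and has several alternative first exons, and its other 4 probe sets had signals between 0.879 and 93.8.

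Gnai2 encodes an inhibitory subunit that lowers cyclase activity and is made in many cell types. Its signals were 2741 and 2644 in control, 2319 and 2436 in RKIP-labelled and 2462 and 2461 in GRK-Inh hearts. The arrays of both lines lay below both control arrays, but neither difference passed the test: -0.18 ± 0.053 (adjusted p = 0.0588, limma) and -0.13 ± 0.053 (adjusted p = 0.143, limma). The other probe set of Gnai2 also lay lower in both lines, at 1527 and 1544 and at 1550 and 1485, against 1682 and 1687 in control. With a filter at the 75th percentile of probe sets the RKIP-labelled difference was called (adjusted p = 0.0401).

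The cyclase genes Adcy5 and Adcy6 showed different patterns. Adcy6 had signals of 1914 and 1712 in control hearts, 1867 and 1939 in RKIP-labelled hearts, and 2307 and 2382 in GRK-Inh hearts. Both GRK-Inh arrays lay above the other 4 arrays, and the RKIP-labelled arrays overlapped the control arrays. Adcy6 rose in the GRK-Inh hearts by 0.36 ± 0.064 on the log2 scale (adjusted p = 0.00365, limma), a fold change of 1.29 with a 95% interval of 1.17 to 1.42. In the RKIP-labelled hearts the difference from control was 0.070 ± 0.064 (adjusted p = 0.554, limma), a fold change of 1.05 with an interval of 0.951 to 1.16. The direct comparison of the lines gave -0.29 ± 0.064 (RKIP-labelled minus GRK-Inh, adjusted p = 0.0182, limma). The rise over control was called without each array in turn (0.29 to 0.44, adjusted p 0.00599 to 0.0339), but not under a variance model with no trend on the mean level (adjusted p = 0.0626). The difference between the lines was lost with that model (adjusted p = 0.133) and without each of the 4 arrays in turn: -0.27 without RKIP-labelled array 1, -0.32 without RKIP-labelled array 2, -0.32 without GRK-Inh array 1 and -0.27 without GRK-Inh array 2. Adcy6 has a single probe set here, so no other probe set can be set beside it.

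Adcy5 had signals of 378 and 481 in control, 321 and 289 in RKIP-labelled and 321 and 342 in GRK-Inh hearts. The control arrays lay above the 4 transgenic arrays and also differed most from each other. The log2 fold change was -0.43 ± 0.12 (adjusted p = 0.0503, limma) in RKIP-labelled and -0.32 ± 0.12 (adjusted p = 0.113, limma) in GRK-Inh hearts, so neither passed. The RKIP-labelled difference lay at the threshold: it was called with the arrays shifted to a common median (adjusted p = 0.0483), with an offset of 200 (adjusted p = 0.0495), with the stricter filter (adjusted p = 0.0396) and when B6 array 1 was left out (-0.58, adjusted p = 0.0382). When B6 array 2 was left out it was -0.27. The GRK-Inh difference was -0.48 without B6 array 1 and -0.17 without B6 array 2, and it was called in neither case (adjusted p = 0.0606 and 0.496). A further Adcy5 probe set of lower signal gave 275 and 386 in control, 234 and 160 in RKIP-labelled and 286 and 290 in GRK-Inh hearts. In that set the RKIP-labelled arrays were the lowest (-0.62, adjusted p = 0.0520 over all probe sets), and the GRK-Inh arrays overlapped the control arrays. The other 2 Adcy5 probe sets were dim, between 6.82 and 45.1.

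**Figure D2:**
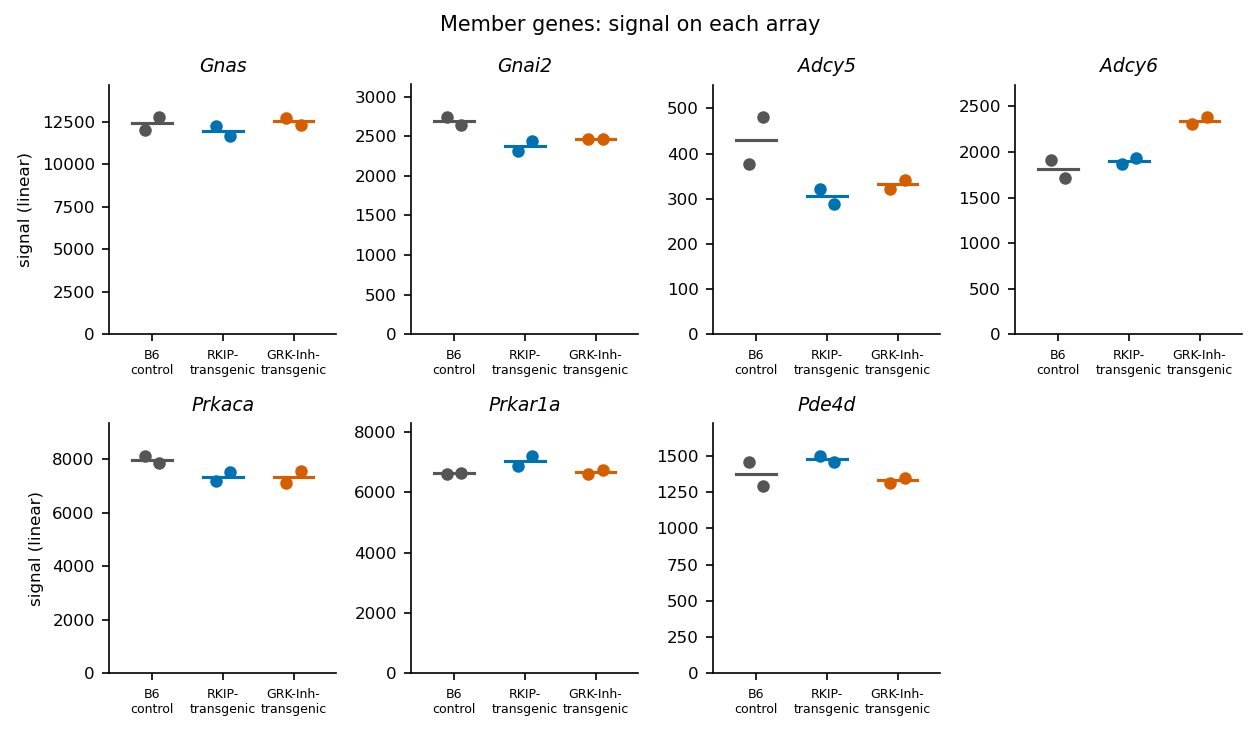
Linear signal (vertical axis, from 0, a separate scale for each gene) of the 7 members on each of the 6 arrays; points are arrays and lines are group means of 2 arrays. The GRK-Inh points of Adcy6 (2307 and 2382) lie above all others, and the control points of Adcy5 (378 and 481) lie above the 4 transgenic points.

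The PKA members encode the catalytic subunit (Prkaca) and the type I regulatory subunit that holds it inactive until cAMP binds (Prkar1a). Prkaca had signals of 8106 and 7851 in control, 7164 and 7516 in RKIP-labelled and 7114 and 7567 in GRK-Inh hearts. All 4 transgenic arrays lay below the control arrays by the same amount, -0.12 ± 0.046 in each line, and neither difference passed (adjusted p = 0.130 and 0.113, limma). The dimmer Prkaca probe set, at 643 to 775, overlapped between each line and control. Prkar1a had signals of 6616 and 6653 in control, 6881 and 7199 in RKIP-labelled and 6607 and 6724 in GRK-Inh hearts. The RKIP-labelled arrays were the highest, by 0.085 ± 0.041 over control (adjusted p = 0.233, limma), with an interval of the fold change of 0.995 to 1.13. In the GRK-Inh hearts Prkar1a was at 0.0066 ± 0.041 (adjusted p = 0.941, limma). The next Prkar1a probe set gave 2487 and 2570 in RKIP-labelled, 2472 and 2325 in GRK-Inh and 2443 and 2268 in control hearts, with the RKIP-labelled arrays again the highest. A dim Prkar1a probe set went the other way without passing, at 81.5 and 53.8 in RKIP-labelled, 75.3 and 63.2 in GRK-Inh and 55.01 and 101 in control hearts (-0.11 for RKIP-labelled minus control, adjusted p = 0.817 over all probe sets).

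Pde4d encodes a phosphodiesterase that degrades cAMP near the calcium-handling proteins. Its signals were 1458 and 1293 in control, 1497 and 1454 in RKIP-labelled and 1314 and 1346 in GRK-Inh hearts. Both lines overlapped the control arrays, with log2 fold changes of 0.10 ± 0.070 (adjusted p = 0.418, limma) and -0.045 ± 0.070 (adjusted p = 0.728, limma). The RKIP-labelled arrays lay above the GRK-Inh arrays by 0.14 ± 0.070 (adjusted p = 0.250, limma). Pde4d makes many transcript forms, and its other probe set was too dim to be tested: 2.55 and 9.94 in control, 18.2 and 19.9 in RKIP-labelled and 61.3 and 52.8 in GRK-Inh hearts. In all, 14 of the 19 member probe sets passed the filter on dim signals. Tested one by one with all such probe sets, 0 were called in the RKIP-labelled comparison (8.19% of all probe sets), 1 in the GRK-Inh comparison (10.9%) and 1 between the lines (6.08%), in both cases that of Adcy6.

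By the correlation of log2 values over the 6 arrays, the genes most like Adcy6 were Opa1 (Pearson r = 0.995) and Kif18b (r = 0.994). This is a description of 6 arrays of 3 groups, chosen as the best among 11254 genes. Opa1, the gene of a GTPase of the inner mitochondrial membrane, had signals of 4783 and 4953 in GRK-Inh and of 4034 to 4366 on the other 4 arrays.

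Around the members, larger differences were found among cAMP-responsive genes, phosphodiesterases, cyclases, other cAMP effectors and PKA substrates. These roles together hold more genes than the members, and more genes tend to give larger extremes. A list of 109 further symbols of the pathway was chosen with earlier results of these data known, so its shares are no independent test. It gave 80 tested genes. Of these, 8 rose and 7 fell in RKIP-labelled hearts (18.8%, against 10.8% of all genes), and 11 rose and 7 fell in GRK-Inh hearts (22.5%, against 13.1%). Between the lines 6 were higher and 8 lower in the RKIP-labelled hearts (17.5%, against 8.84%). The listed genes had a smaller median SE than all genes (0.089 against 0.115), and their median log2 fold change was near 0 in both comparisons with control (-0.037 and -0.0092). Without regard to sign, their median log2 fold change against control was 0.195 and 0.179, beside 0.137 and 0.147 over all genes. Between the lines it was 0.104, beside 0.128 over all genes. Under the variance model with no trend, 5, 11 and 6 of the 80 were called in these comparisons (6.25%, 13.8% and 7.5%, against 2.6%, 6.45% and 2.23% of all genes). With single arrays left out, the RKIP-labelled comparison gave 6 calls (RKIP-labelled array 1 left out, 7.5% against 6.13% of all genes), 9 (RKIP-labelled array 2, 11.2% against 6.66%), 7 (B6 array 1, 8.75% against 5.48%) and 8 (B6 array 2, 10% against 5.61%). The share of listed genes was thus close to that of all genes without RKIP-labelled array 1. The GRK-Inh comparison gave 14 (GRK-Inh array 1), 12 (GRK-Inh array 2), 12 (B6 array 1) and 11 (B6 array 2), or 13.8% to 17.5% against 7.94% to 8.17% of all genes. The comparison between the lines gave 6 (RKIP-labelled array 1), 9 (RKIP-labelled array 2), 7 (GRK-Inh array 1) and 6 (GRK-Inh array 2), or 7.5% to 11.2% against 4.3% to 4.85% of all genes.

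**Figure D3:**
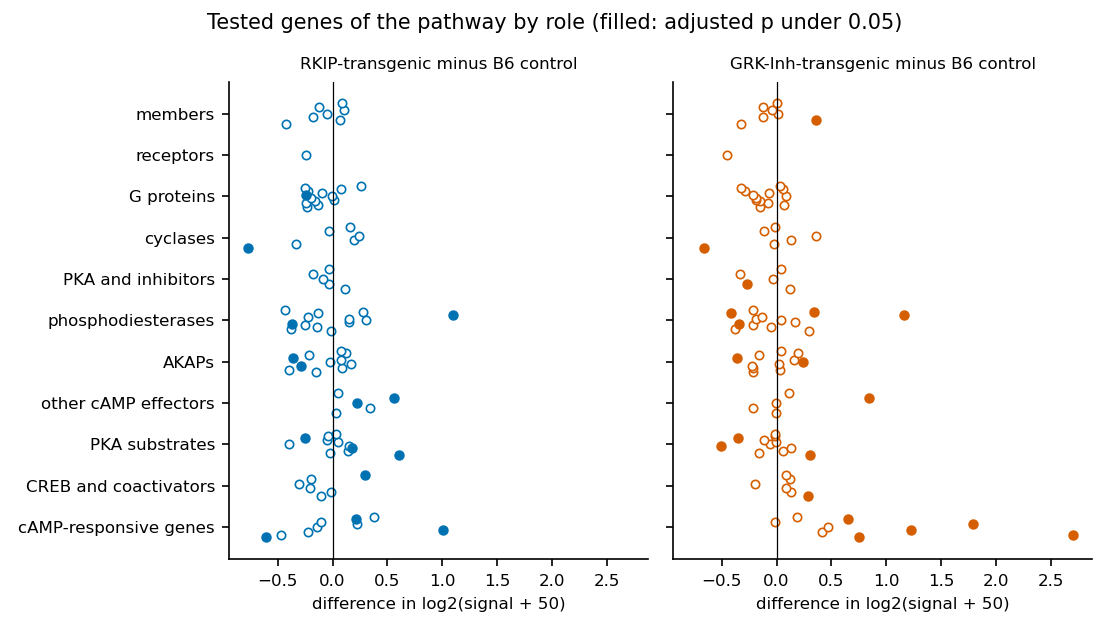
Log2 fold changes against control (horizontal axis, log2(signal + 50) scale) of the tested genes of each role, RKIP-transgenic on the left and GRK-Inh-transgenic on the right; each point is a gene, and filled points have an adjusted p under 0.05. The members lie between -0.43 and 0.36, while Pde7a lies at 1.10 and 1.16 among the phosphodiesterases and Fos at 2.70 in the GRK-Inh panel.

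Of the other receptors, only Adra1b, an alpha-adrenergic receptor that couples to Gq, was tested, at signals of 106 and 121 in control and 68.6 to 98.9 in the transgenic hearts. It was lower on all 4 transgenic arrays without passing (-0.25, adjusted p = 0.400, and -0.45, adjusted p = 0.104, limma). Of 13 other G protein genes, 0 rose in either line, and 1 fell in RKIP-labelled and 0 in GRK-Inh hearts. In these comparisons 10.8% and 13.1% of all genes were called. The medians of the 13 genes were -0.16 and -0.15. The gene that fell was Gng10, a gamma subunit gene (-0.24 ± 0.065, adjusted p = 0.0400, limma), and in GRK-Inh hearts it was at -0.22 ± 0.065 without passing (adjusted p = 0.0533, limma). That call was lost without each of the 4 arrays compared (-0.27 to -0.21, adjusted p 0.0875 to 0.181) and with the replicate number as a block (adjusted p = 0.0532). Of 6 other cyclases, 0 rose and 1 fell in each line (10.8% and 13.1% of all genes called). Adcy1, a calcium-stimulated cyclase, gave 316 and 343 in control, 154 and 193 in RKIP-labelled and 239 and 148 in GRK-Inh hearts. All 4 transgenic arrays lay below control, by 0.77 ± 0.17 (adjusted p = 0.0180) and 0.66 ± 0.17 (adjusted p = 0.0304, limma) on the log2 scale. The call in RKIP-labelled hearts was lost when RKIP-labelled array 1 or either B6 array was left out (-0.89 to -0.64 over the arrays left out), and that in GRK-Inh hearts without GRK-Inh array 2 or either B6 array (-0.93 to -0.39).

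Of 5 other genes of PKA subunits and PKA inhibitor peptides, 0 rose and 0 fell in RKIP-labelled hearts (10.8% of all genes called). In GRK-Inh hearts 0 rose and 1 fell (13.1% of all genes called). Pkig, which encodes an inhibitor peptide of the catalytic subunit, gave 5411 and 5266 in GRK-Inh hearts, below the control (6294 and 6574) and RKIP-labelled (6585 and 5967) arrays. It fell in the GRK-Inh hearts by 0.27 ± 0.052 (adjusted p = 0.00658, limma), and its other bright probe set gave -0.34 (adjusted p = 0.00686 over all probe sets). The call of the main probe set was lost without GRK-Inh array 2 and without B6 array 2 (-0.30 to -0.24 over the arrays left out, adjusted p up to 0.0610).

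The largest difference from control among the tested pathway genes in RKIP-labelled hearts was that of Pde7a, whose enzyme degrades cAMP. Pde7a gave 327 and 326 in control, 725 and 791 in RKIP-labelled and 923 and 680 in GRK-Inh hearts. All 4 transgenic arrays lay above both control arrays, and the GRK-Inh arrays spread around the RKIP-labelled ones. Pde7a rose by 1.10 ± 0.12 (adjusted p = 0.000258) in RKIP-labelled and by 1.16 ± 0.12 (adjusted p = 0.000134, limma) in GRK-Inh hearts. The other 6 Pde7a probe sets that passed the filter gave 0.61 to 1.28 in RKIP-labelled and 0.63 to 1.49 in GRK-Inh hearts, and each was called in both. Of 13 tested phosphodiesterase genes besides Pde4d, Pde7a included, 1 rose and 1 fell in RKIP-labelled hearts (10.8% of all genes called). In GRK-Inh hearts 2 rose and 2 fell (13.1% of all genes called).

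Pde2a, an enzyme that cGMP stimulates to degrade cAMP, was the gene that fell in both lines. It gave 2536 and 2378 in control, 1854 and 1924 in RKIP-labelled and 1966 and 1881 in GRK-Inh hearts. The differences were -0.37 ± 0.058 (adjusted p = 0.00265) and -0.34 ± 0.058 (adjusted p = 0.00283, limma). Both calls were lost under the variance model with no trend (adjusted p = 0.0690 and 0.0552). The 2 dimmer Pde2a probe sets did not pass and gave -0.00395 and -0.41 in RKIP-labelled and -0.27 and -0.26 in GRK-Inh hearts. Pde7b gave 1305 and 1284 in control, 1215 and 1133 in RKIP-labelled and 933 and 989 in GRK-Inh hearts, and fell in the GRK-Inh hearts by 0.41 ± 0.069 (adjusted p = 0.00256, limma), whereas its 2 dim probe sets gave -0.12 and -0.13 without passing. Pde8a, a cAMP-specific enzyme, rose in the GRK-Inh hearts (0.34 ± 0.095, adjusted p = 0.0386, limma). That call was lost without each of the 4 arrays compared (0.28 to 0.40) and with the replicate number as a block (adjusted p = 0.0515). In RKIP-labelled hearts Pde8a was at 0.28 ± 0.095 without passing (adjusted p = 0.0900, limma).

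**Figure D4:**
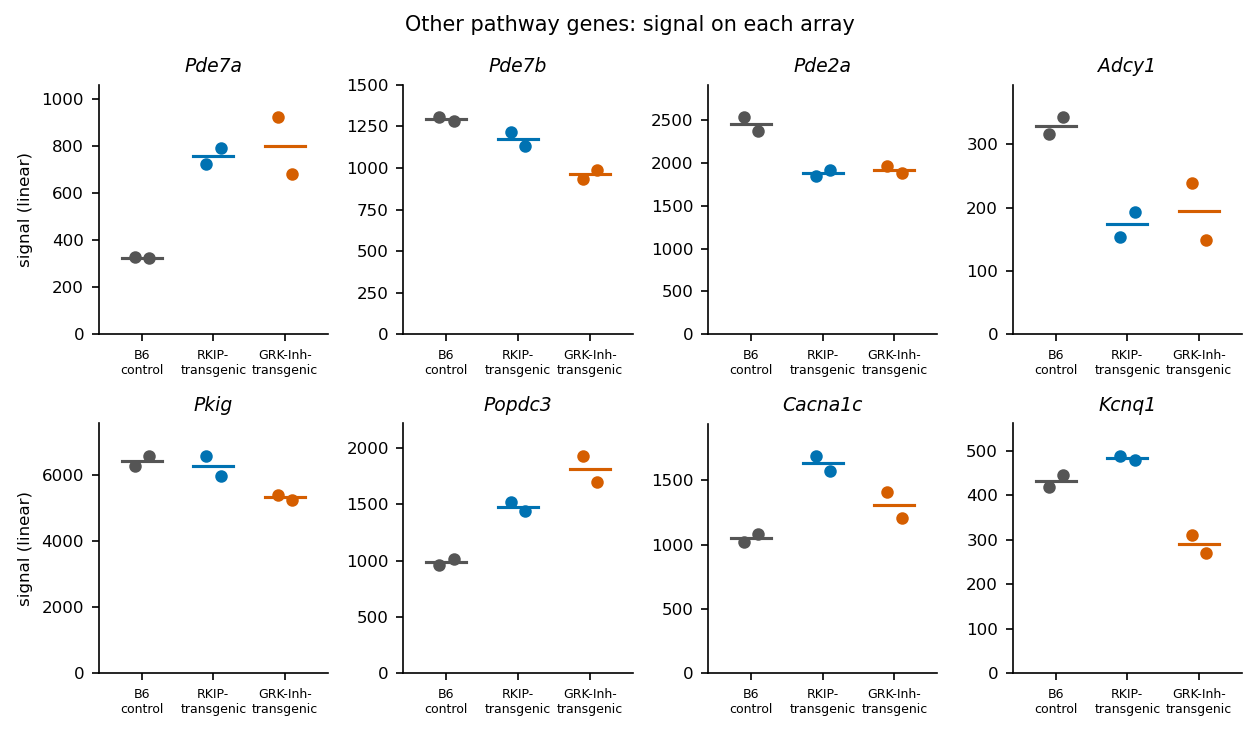
Linear signal (vertical axis, from 0, a separate scale for each gene) of 8 pathway genes on each array; points are arrays and lines are means of 2 arrays. All 4 transgenic points of Pde7a (680 to 923) lie above its control points (326 and 327).

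Of 11 genes of A-kinase anchoring proteins, which hold PKA near its substrates, 0 rose and 2 fell in RKIP-labelled hearts (10.8% of all genes called). In GRK-Inh hearts 1 rose and 1 fell (13.1% of all genes called). Akap7 gave 713 and 697 in control and 528 to 547 on the 4 transgenic arrays. It fell by 0.36 in both lines (adjusted p = 0.0171 and 0.0132, limma), and both calls were lost without each array compared (adjusted p 0.0503 to 0.0915), with log2 fold changes of -0.38 to -0.34. Akap12 fell in RKIP-labelled hearts (-0.29 ± 0.074, adjusted p = 0.0316, limma), a call lost without each array compared (-0.35 to -0.23). In GRK-Inh hearts Akap12 was at -0.22 ± 0.074 without passing (adjusted p = 0.0729, limma). Akap2 rose in GRK-Inh hearts (0.24 ± 0.056, adjusted p = 0.0164, limma), a call lost without either GRK-Inh array or B6 array 2 (0.21 to 0.27), and its other probe set gave -0.023.

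Among cAMP effectors other than PKA, 2 of 5 genes rose in RKIP-labelled (5.32% of all genes) and 1 in GRK-Inh hearts (5.85%). In both lines 0 fell (5.52% and 7.25% of all genes). Popdc3 encodes a Popeye protein, a membrane protein of muscle that binds cAMP. It gave 957 and 1013 in control, 1518 and 1439 in RKIP-labelled and 1928 and 1696 in GRK-Inh hearts. All 4 transgenic arrays lay above control, and the rises were 0.56 ± 0.075 (adjusted p = 0.000846) and 0.84 ± 0.075 (adjusted p = 4.0e-05, limma). Popdc2, of the same family, rose in RKIP-labelled hearts (0.22 ± 0.055, adjusted p = 0.0258, limma), a call lost when RKIP-labelled array 1 or either B6 array was left out (0.18 to 0.27). Hcn2, the gene of a pacemaker channel that cAMP opens, gave 187 and 196 in RKIP-labelled and 114 and 114 in GRK-Inh hearts, with the control arrays between them at 152 and 130.3. It differed between the lines (0.56 ± 0.14, adjusted p = 0.0318, limma), a call lost without each of the 4 arrays compared (0.53 to 0.58).

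Of 11 genes of PKA substrates, 2 rose and 1 fell in RKIP-labelled hearts (10.8% of all genes called). In GRK-Inh hearts 1 rose and 2 fell (13.1% of all genes called). Cacna1c encodes the pore of the L-type calcium channel. It gave 1021 and 1082 in control, 1690 and 1575 in RKIP-labelled and 1411 and 1210.1 in GRK-Inh hearts. It rose in RKIP-labelled hearts by 0.61 ± 0.081 (adjusted p = 0.000838) and in GRK-Inh hearts by 0.30 ± 0.081 (adjusted p = 0.0324, limma). The GRK-Inh call was lost without GRK-Inh array 1 or either B6 array (0.19 to 0.41), and a dimmer Cacna1c probe set gave 0.39 in RKIP-labelled (adjusted p = 0.0317 over all probe sets) and -0.025 in GRK-Inh hearts. Kcnq1, the gene of a repolarising potassium channel, gave 418 and 447 in control, 488 and 479 in RKIP-labelled and 311 and 270.1 in GRK-Inh hearts. It fell in GRK-Inh hearts by 0.50 ± 0.10 (adjusted p = 0.00761, limma), a call lost without GRK-Inh array 2 or B6 array 2 (-0.59 to -0.42). Between the lines it differed by 0.65 ± 0.10 (adjusted p = 0.00295, limma).

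Rrad encodes a small GTPase that restrains the L-type calcium channel until PKA phosphorylates it. It gave 3361 and 3015 in control and 2472 to 2829 on the 4 transgenic arrays. It fell in RKIP-labelled (-0.25 ± 0.069, adjusted p = 0.0417) and GRK-Inh hearts (-0.35 ± 0.069, adjusted p = 0.00635, limma). The first call was lost without RKIP-labelled array 1 or B6 array 1 (-0.33 to -0.17) and with the replicate number as a block (adjusted p = 0.0567), and the second without B6 array 1 (-0.43 to -0.28 over the arrays left out). Hspb6, a small heat shock protein that PKA phosphorylates, rose in RKIP-labelled hearts (0.17 ± 0.039, adjusted p = 0.0177, limma). That call was lost without either RKIP-labelled array or B6 array 1 (0.13 to 0.21). In GRK-Inh hearts Hspb6 was at 0.13 ± 0.039 without passing (adjusted p = 0.0518, limma). The GRK-Inh difference was called with the arrays shifted to one median (adjusted p = 0.0155, limma). The same held with a filter at the 75th percentile (0.0398) and with robust moderation of the variances (0.0480). The RKIP-labelled call was also lost with quantile normalization (adjusted p = 0.0710, limma), without a filter (0.0536) and with no variance trend (0.220). Ryr2, Pln, Tnni3 and Mybpc3, further PKA substrates of calcium handling and contraction, were not called in either line, with log2 fold changes of -0.11 to 0.050. They were chosen after their values were seen.

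At the nuclear end of the pathway, PKA phosphorylates CREB, a transcription factor that binds the palindrome TGACGTCA or its core TGACG. Of 6 genes of CREB family factors and coactivators, 1 rose in each line (5.32% and 5.85% of all genes) and 0 fell (5.52% and 7.25%). Creb1 gave 1243 and 1352 in GRK-Inh, 1045 and 1057 in control and 926 and 1027 in RKIP-labelled hearts. It rose in the GRK-Inh hearts (0.29 ± 0.075, adjusted p = 0.0274, limma), a call lost without GRK-Inh array 2 or either B6 array (0.23 to 0.35). Its other 3 tested probe sets gave 0.13 to 0.32 without passing. Between the lines it differed by -0.39 ± 0.075 (adjusted p = 0.00881, limma), a call lost without RKIP-labelled array 1 or GRK-Inh array 2 (-0.46 to -0.32). Ep300, the gene of a CREB coactivator, rose in RKIP-labelled hearts (0.29 ± 0.069, adjusted p = 0.0221, limma), a call lost without each array compared (0.26 to 0.32).

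Genes known to respond to cAMP through CREB moved in the GRK-Inh hearts: 5 of 9 rose and 0 fell, with a median log2 fold change of 0.65. In RKIP-labelled hearts 2 rose and 1 fell, with a median of -0.11. Over all genes tested, 5.85% rose in the GRK-Inh and 5.32% in the RKIP-labelled comparison, and 7.25% and 5.52% fell. The list was chosen with earlier results of these data known, so its counts describe these genes and are no independent test. Most of these genes also respond to other stimuli, among them growth factors and stretch. Fos, which encodes a subunit of the transcription factor AP-1, gave 838 and 880.2 in GRK-Inh, 72.9 and 108 in control and 57.3 and 44.4 in RKIP-labelled hearts. It rose in the GRK-Inh hearts by 2.70 ± 0.15 (adjusted p = 1.4e-06, limma), with a range of 1.87 to 3.06 over 14 alternatives whose lowest and highest values came from the offsets. Against control it was at -0.47 ± 0.15 in RKIP-labelled hearts (adjusted p = 0.0781, limma), with a range of -0.65 to -0.29 when single arrays were left out, and it was called when that array was B6 array 1 (adjusted p = 0.0499).

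Dusp1, the gene of a phosphatase of MAP kinases, went in opposite directions in the lines. It gave 2238 and 2441 in control, 1621 and 1423 in RKIP-labelled and 4085 and 3883 in GRK-Inh hearts. It fell by 0.61 ± 0.071 (adjusted p = 0.000367) in RKIP-labelled and rose by 0.76 ± 0.071 (adjusted p = 5.7e-05, limma) in GRK-Inh hearts. Nr4a1, an orphan nuclear receptor gene, gave 128 and 171 in control, 361 and 334 in RKIP-labelled and 425 and 404 in GRK-Inh hearts, and rose in both (1.00 ± 0.13, adjusted p = 0.000655, and 1.23 ± 0.13, adjusted p = 0.000122, limma). Ppargc1a, which encodes a coactivator of mitochondrial genes, gave 2820.4 and 3052 in control, 3320.0 and 3508 in RKIP-labelled and 4448 and 4822 in GRK-Inh hearts. It rose in GRK-Inh hearts by 0.65 ± 0.059 (adjusted p = 4.9e-05, limma). Its call in RKIP-labelled hearts (0.21 ± 0.059, adjusted p = 0.0426, limma) was lost without each array compared (0.16 to 0.27), and the 4 other probe sets there gave -0.054 to 0.49, with 2 of them called.

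**Figure D5:**
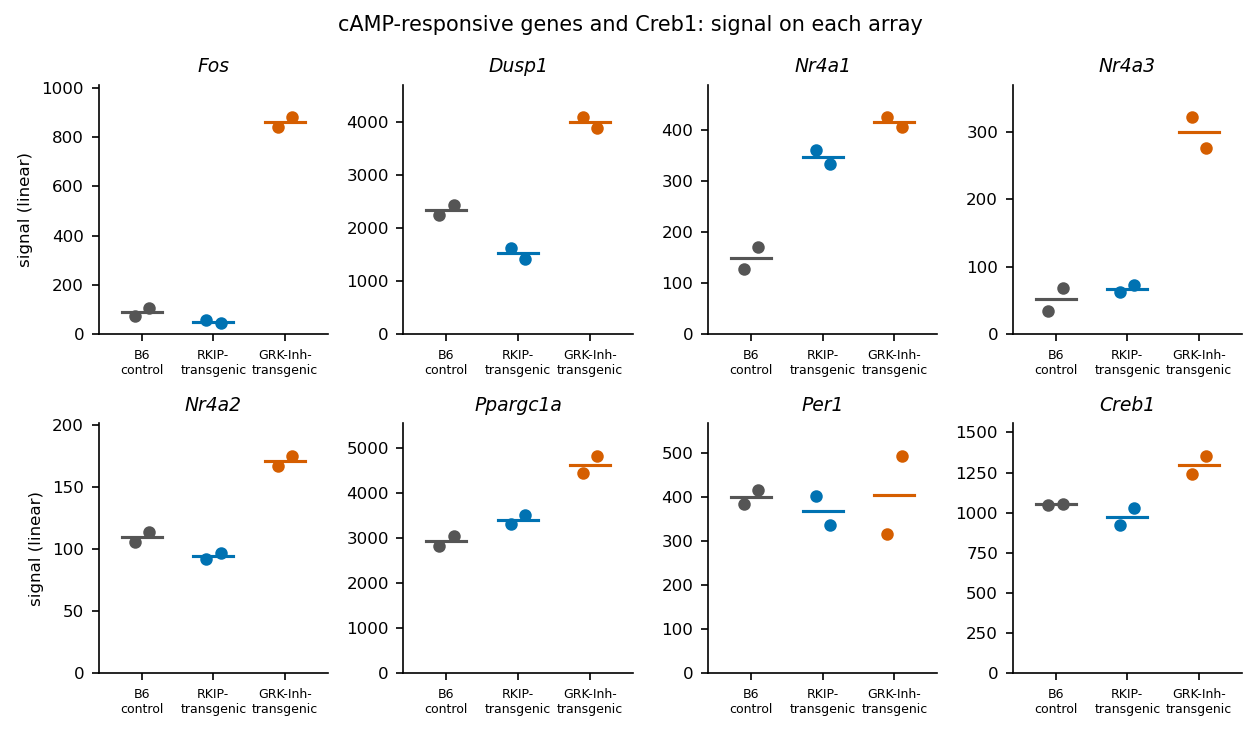
Linear signal (vertical axis, from 0, a separate scale for each gene) of 7 cAMP-responsive genes and Creb1 on each array; points are arrays and lines are means of 2 arrays. The GRK-Inh points of Fos (838 and 880.2) and Dusp1 (3883 and 4085) lie above all others, and the RKIP-labelled points of Dusp1 lie below control.

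The letters of the CREB motif were searched on both strands in RefSeq promoter windows of the GRCm38.p6 build, each with 250 bases before and 50 after a transcript start. The motif TGACG, which also counts each TGACGTCA, was found in 23.0% of 27025 symbols and the full TGACGTCA in 2.03%. All 9 cAMP-responsive genes with a window held TGACG, including Fos and Nr4a1, and Dusp1 alone among them held TGACGTCA. They were listed as genes that respond through CREB, so this count is no test of the motif. Of the 85 pathway symbols other than members with a window, these 9 included, 38.8% held TGACG. Of the 8 members, 6 had a window, and Adcy6 and Gnai2 had none. TGACG was found for 4 of the 6, namely Adrb1, Gnas, Prkaca and Prkar1a, and not for Adcy5 and Pde4d, and Prkar1a alone held TGACGTCA. Genes with several starts have more windows, and Prkar1a has 6. The stretches are shown because they hold the motifs of the member with the full palindrome and of 3 called cAMP-responsive genes, Dusp1, Nr4a1 and Fos, chosen after their values were seen, with TGACG and its reverse complement CGTCA in capitals, read along the transcribed strand. That of Prkar1a is chr11:109650889-109650918 (plus strand), that of Dusp1 chr17:26508473-26508622 (minus), that of Nr4a1 chr15:101266696-101266845 (plus) and that of Fos chr12:85473740-85473889 (plus), the last 3 being the 150 bases before the start.
Prkar1a: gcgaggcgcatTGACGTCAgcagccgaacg
Dusp1: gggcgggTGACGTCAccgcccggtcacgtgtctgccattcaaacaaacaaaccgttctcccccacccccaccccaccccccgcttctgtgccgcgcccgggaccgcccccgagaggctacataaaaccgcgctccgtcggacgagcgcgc
Nr4a1: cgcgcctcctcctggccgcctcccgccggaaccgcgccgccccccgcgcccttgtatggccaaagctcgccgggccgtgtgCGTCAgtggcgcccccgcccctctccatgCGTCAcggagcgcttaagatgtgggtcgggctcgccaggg
Fos: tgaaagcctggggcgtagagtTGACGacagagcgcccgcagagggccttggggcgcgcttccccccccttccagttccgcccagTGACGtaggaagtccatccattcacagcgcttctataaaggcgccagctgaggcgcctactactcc
A match describes these letters and no binding was measured. Dusp1, with the full palindrome, was higher in GRK-Inh and lower in RKIP-labelled hearts, while Prkar1a, also with the full palindrome, was called in neither line.

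Several of these genes are also made outside heart muscle cells, and markers of other cell types differed between the groups. Beside the counts below, 5.32% of all genes rose and 5.52% fell in RKIP-labelled hearts. The same shares were 5.85% and 7.25% in GRK-Inh hearts. Fibroblast markers fell in 4 of 6 genes in RKIP-labelled and 5 of 6 in GRK-Inh hearts (medians of -0.37 and -0.56), and their summed signal was 35281 to 36860 in control, 29396 to 29656 in RKIP-labelled and 26644 to 27352 in GRK-Inh hearts. Smooth muscle and pericyte markers fell in 4 of 4 and 2 of 4 genes, with summed signals of 24050 to 24841, 19774 to 20072 and 21036 to 21415 in the same order. Endothelial markers fell in 2 of 5 and 1 of 5, and macrophage markers in 1 of 4 and 2 of 4. The white adipocyte marker Adipoq fell in RKIP-labelled hearts, with signals of 88.8 and 80.8 against 288 and 307 in control and 434 and 260 in GRK-Inh hearts. The dimmest marker of the fibroblast, smooth muscle, endothelial and macrophage lists still had a signal of 89.6. Muscle cell markers rose in 0 of 6 genes in either line and fell in 1 in RKIP-labelled hearts, and atrial muscle markers fell in 2 of 3 in RKIP-labelled and 0 of 3 in GRK-Inh hearts. In bulk tissue, fewer cells of a type and less RNA per cell cannot be told apart, and the part of these markers in the results for Gnai2, Adcy5 and the other pathway genes was not tested.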

How the data were processed

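The authors deposited one intensity per probe set and array, a linear signal computed with GCOS, whose version is not given in the sources used here, per the submitters' processing notes. Groups and replicate numbers came from the sample titles. Of 45101 probe sets, 64 controls were left out. 932 probe sets with several symbols and 9160 with none were not used. The gene table names no genome build, so no probe set coordinates are given.

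Signals were transformed as log2(signal + 50). Each of 18193 genes was represented by its brightest probe set, and 11254 with a mean log2 value of at least 6.65, the median over probe sets (a signal of 50.2), were tested. The test was limma 3.58.1 (R 4.3.3), as a single model of 3 groups (3 residual and 7.63 prior degrees of freedom, variance trend). Intervals are 95% and come from this model. The number of arrays limits the precision. Other probe sets were tested in a second fit over all probe sets.

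The members and lists were chosen with earlier results of these data known. The text names all members and, per list, up to 4 called genes by smallest adjusted p, or else the brightest. Genes given with values beside these (Nr4a2, Nr4a3 and Per1 in a plot, Ryr2, Pln, Tnni3 and Mybpc3) were chosen after their values were seen. The main model did not pair the arrays by replicate number. Same-numbered arrays had correlations of deviations between -0.035 and 0.026. With 2 arrays in each group, these values cannot show that the arrays were unpaired. The procedure was run on simulated data whose spread depended on the mean level alone. Such data cannot show how it behaves where genes of a given level differ in spread. Alternatives are in the closing section. Figures used Python 3.11.15 and matplotlib 3.10.9.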

Additional observations from a re-analysis of the deposited data

Results flagged for a closer look

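The 2 transgenic lines differed from each other, by the direct test between them (limma, adjusted p under 0.05), in 1 member and 12 other pathway genes named above. The values are RKIP-labelled minus GRK-Inh on the log2 scale. Adcy6 was lower by this measure (-0.29), as were Fos (-3.17), Dusp1 (-1.36), Ppargc1a (-0.44), Creb1 (-0.39), Popdc3 (-0.28) and Akap2 (-0.27). Kcnq1 (0.65), Hcn2 (0.56), Cacna1c (0.31), Pde7b (0.28), Pkig (0.23) and Popdc2 (0.23) were higher. Other probe sets of Ppargc1a (-0.47 to -0.29), Cacna1c (0.42) and Pkig (0.29) were also called in the fit over all probe sets. The other tested probe sets of Akap2 (0.073), Creb1 (-0.33 to 0.065) and Pde7b (0.063 and 0.25) were not. Under the variance model with no trend the call of Ppargc1a was lost (adjusted p = 0.0659, limma), and those of Fos, Dusp1 and Kcnq1 held. The calls of Fos, Dusp1, Kcnq1 and Ppargc1a held when any 1 of the 4 arrays was left out. Those of Adcy6 (-0.32 to -0.27), Hcn2 (0.53 to 0.58) and Pde7b (0.23 to 0.32) were lost in each case. The call of Popdc3 (-0.37 to -0.19) was lost without GRK-Inh array 1 or either RKIP-labelled array, and that of Cacna1c (0.20 to 0.42) without GRK-Inh array 2 or either RKIP-labelled array. Without RKIP-labelled array 1 or either GRK-Inh array the calls of Akap2 (-0.33 to -0.21), Pkig (0.16 to 0.30) and Popdc2 (0.18 to 0.27) were lost, and without RKIP-labelled array 1 or GRK-Inh array 2 that of Creb1 (-0.46 to -0.32).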

How the results depend on the processing

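Over 315 refits of the 7 members, 304 left the call as it was, 6 lost it, 5 gained it and 0 reversed a called value. Among the 44 calls of named pathway genes, 15 held in every alternative and 29 were lost in at least 1, 26 of them with a variance without trend.

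The counts below are given in the order RKIP-labelled against control, GRK-Inh against control, and RKIP-labelled against GRK-Inh. All genes called numbered 1220, 1474 and 995. They were 522, 771 and 418 at an adjusted p under 0.01, 2244 and 1510 at 0.1 in the last 2 comparisons, 293, 726 and 251 with a variance without trend, and 619 without a filter in the last. With 1 array left out they ranged from 617 to 749, 895 to 918 and 484 to 545. Members called (0, 1 and 1) became 0 in the last 2 with a variance without trend and 0 in the last at 0.01. In the first they became 2 at 0.1, 1 with the arrays shifted to one median, 1 with an offset of 200 and 2 with a filter at the 75th percentile. With 1 array left out they ranged from 0 to 1, 1 to 1 and 0 to 0. Pathway genes called (15, 18 and 14) were 6 in the first and 6 in the last at 0.01, 30 in the second at 0.1, 5, 11 and 6 with a variance without trend, and 9 and 7 in the first and last without a filter. With 1 array left out they ranged from 6 to 9, 11 to 14 and 6 to 9. Fewer arrays leave fewer residual degrees of freedom, and the cause of the other changes was not tested.

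With the replicate number as a block the counts of genes called were 1153, 1436 and 907 and those of pathway genes 13, 17 and 14. The block lost the calls of Gng10 and Rrad in the first comparison and of Pde8a in the second. It changed no call of a member. Shifting the arrays to one median moved the share of rises among called genes from 44.6% to 60.0% in the second comparison and from 50.6% to 34.7% in the last.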
